A study of Mus musculus with 8 samples.

Results

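The 10 goblet cell products described here are Muc2, Tff3, Fcgbp, Clca1, Agr2, Zg16, Spink4, Klk1, Ccl6 and Retnlb, measured in intestinal stem cells that were sorted for high Lgr5 reporter signal. They were chosen by gene symbol, through the RefSeq accession that each array probe carries, and all 10 were found, each with 1 probe of 1 spot, among the 25403 features tested. The conditional knockout mice, labelled Irf2AhcKO and written Irf2_AhcKO here, had floxed Irf2 (Irf2fl/fl) with AhCre and the Lgr5-EGFP-Ires-CreERT2 allele. The control mice had Irf2fl/fl and Lgr5-EGFP-Ires-CreERT2 without AhCre, and each group had 4 samples. The Lgr5 reporter allele, which all mice carried, also encodes an inducible Cre, and all mice had received β-naphthoflavone on 5 days, 1 month before their cells were taken. Ah-Cre is driven by a promoter that such xenobiotics switch on; it is not limited to stem cells. Ages are not given in the labels. The study names 4 independent mice and 2 biological replicates, which does not settle whether each array is a mouse, so the p-values cover only how these samples varied.

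Goblet cells are secretory cells of the intestinal epithelium that arise from Lgr5 stem cells when Notch signalling is low, under the transcription factor Atoh1 and later Spdef. They fill their granules with the gel-forming mucin Muc2, which is folded and O-glycosylated on its way through the cell, and release it together with small proteins that shape the mucus layer. Transcripts of goblet products in a gate for stem cells can come from stem cells, from secretory progenitors that still carry the reporter, or from mature cells in the sort. In such bulk samples a smaller share of goblet cells and less RNA per cell cannot be told apart.

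Of the 10 genes, 5 had an entry in the RefSeq promoter table of GRCm38.p6. The 250 bases before the start are shown for Muc2 (chr7:141690090-141690339, plus strand), as the main product, for Fcgbp (chr7:28070986-28071235, plus strand), as the probe with the steadiest level, and for Klk1 (chr7:44225110-44225359, plus strand), as the gene with the largest difference between the groups. Capitals mark 2 of the motifs searched, the TATA core TATAAA and the E-box CAGCTG of the kind that Atoh1 binds.
Muc2: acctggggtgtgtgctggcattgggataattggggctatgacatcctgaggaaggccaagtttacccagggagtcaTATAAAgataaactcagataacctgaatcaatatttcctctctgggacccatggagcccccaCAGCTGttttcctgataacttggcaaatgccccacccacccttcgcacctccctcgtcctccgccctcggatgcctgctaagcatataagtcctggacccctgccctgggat
Fcgbp: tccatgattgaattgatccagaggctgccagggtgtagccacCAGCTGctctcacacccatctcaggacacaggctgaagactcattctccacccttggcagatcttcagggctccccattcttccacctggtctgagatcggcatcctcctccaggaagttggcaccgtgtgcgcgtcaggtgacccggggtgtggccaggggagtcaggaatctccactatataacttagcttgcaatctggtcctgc
Klk1: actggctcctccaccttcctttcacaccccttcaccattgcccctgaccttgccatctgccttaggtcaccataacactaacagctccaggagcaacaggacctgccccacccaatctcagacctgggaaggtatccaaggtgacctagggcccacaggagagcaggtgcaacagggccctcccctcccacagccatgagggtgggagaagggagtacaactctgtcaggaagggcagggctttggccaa
Muc2 held TATAAA 174 bases before the start and CAGCTG 112 bases before it, and Fcgbp held CAGCTG 208 bases before it. Both strands were searched, CAGCTG reads the same on either strand, and no marked match overlapped another. TATAAA was present in 12.4% and CAGCTG in 13% of the 32851 promoters of this length. The core of an interferon response element, which factors of the IRF family bind and which was searched as GAAA, any 2 bases and GAAA, was in none of the 5 goblet promoters and in 2.98% of all. The forkhead core TGTTTAC was likewise in none of the 5 and in 3.17% of all. A match describes these letters and is not a site.

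The arrays lay on 2 slides, which were also scanned apart, with replicates 1 and 2 of both groups on slide 1 and replicates 3 and 4 on slide 2. Between 61.4% and 69.8% of the spots of an array were well above background, and none was saturated. Of all features, 35.5% differed between the slides (limma adjusted p below 0.05), and so the slide was a term in the main comparison of the groups. Some alternative settings had no such term, and ranges and overlaps of the groups pool both slides. Irf2 itself had a log2 signal of 1.12, 1.10, 0.70 and 0.73 in Irf2_AhcKO, against 0.99, 0.55, 0.37 and 0.64 in control. The difference was 0.27 (standard error 0.12, adjusted p = 0.429 by limma), so Irf2_AhcKO arrays did not have less signal on its 1 probe. No source used here places this probe relative to the deleted part, so it may check nothing. For control replicates 3 and 4, Ah-Cre appears in the name of the scan although their labels give no Cre of that kind. Every direction below is therefore between libraries labelled Irf2_AhcKO and libraries labelled control. Of 18 listed stem cell markers, 17 had a probe, while Olfm4 was not matched to one. All 17, among them Lgr5, Ascl2 and Smoc2, were well above background on all 8 arrays. This does not check the sort, since all 10 measured Paneth markers and all 8 pan-epithelial genes were so too.

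No goblet product passed the test between the groups, although all 10 had a log2 difference below 0. Over all features, 25 passed at a limma adjusted p below 0.05, which is 0.0984% (0.0433% lower in Irf2_AhcKO). With the replicate number as a block none did (3292 at an unadjusted limma p below 0.05), and with 1 array left out 0 to 25 did. A difference below 0 was found in 50.5% of all features. The median difference of the 10 genes was -0.18, with -0.30 on slide 1 and -0.12 on slide 2, against a median of -0.0024 over all features. It was -0.30 without Irf2_AhcKO replicate 3, -0.10 without Irf2_AhcKO replicate 4 and -0.12 without control replicate 1. At an unadjusted limma p below 0.05 stood 2 of the 10, Klk1 and Muc2, both with a negative difference, where 5.74% of all features did so. That count depended on single arrays. It was 5 without Irf2_AhcKO replicate 3, where Ccl6, Fcgbp and Spink4 joined, and 1, Klk1 alone, without Irf2_AhcKO replicate 1, 2 or 4 or control replicate 1 or 3. It was 3 with the replicate block, where Zg16 joined, and 1, Klk1, without the slide term. On slide 1 alone it was 3 (Klk1, Ccl6 and Spink4), and on slide 2 alone 0. The difference was negative on both slides for 7 of the 10, against 31.7% of all features, and no goblet product had groups that did not overlap, against 3.85% of all features (2.11% with Irf2_AhcKO lower). Within slides, 7 of the 10 were lower in Irf2_AhcKO in at least 6 of the 8 pairs of arrays, against 28.9% of all features. These counts are not made of separate observations. With slide means removed, all but Retnlb moved together over the arrays (Pearson correlation 0.64 to 0.96 with the mean of the others).

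**Figure D1:**
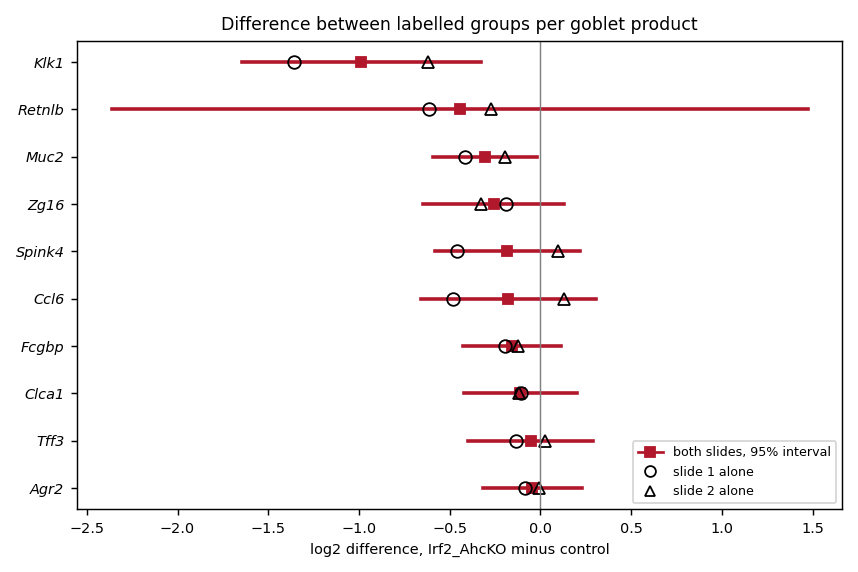
The horizontal axis gives the log2 difference of Irf2_AhcKO minus control for each goblet product, with a square for the fit over both slides, a line for its 95% interval, and open symbols for each slide alone. All 10 squares lie below 0, the intervals of Klk1 and Muc2 end below 0, and Tff3, Spink4 and Ccl6 lie above 0 on slide 2.

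Muc2 encodes the gel-forming mucin that makes up the bulk of intestinal mucus. As a log2 signal from which the 75th percentile of its array was subtracted, the scale of all signals here, it had 0.072, 0.088, 1.46 and 1.08 in Irf2_AhcKO replicates 1 to 4, against 0.66, 0.33, 1.50 and 1.43 in control replicates 1 to 4. On both slides the Irf2_AhcKO arrays lay mostly below the controls, in 7 of 8 pairs of arrays of 1 slide, but over both slides the groups overlapped, with slide 2 brighter in both groups. The means were 0.68 ± 0.70 in Irf2_AhcKO and 0.98 ± 0.58 in control (SD, n = 4 each). With the slide as a term the difference was -0.30 (standard error 0.12, adjusted p = 0.409 by limma), with a 95% interval of -0.59 to -0.018, which corresponds to 0.81-fold.

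Fcgbp, a large mucus protein with von Willebrand domains that is crosslinked into the Muc2 network, had 6.83, 6.78, 7.13 and 6.67 in Irf2_AhcKO, against 7.10, 6.90, 6.99 and 7.05 in control. Its 8 arrays spanned less than those of any other of the 10 products. Irf2_AhcKO replicate 3 was the highest and replicate 4 the lowest of all, so the groups overlapped. The difference was -0.16 (standard error 0.11, adjusted p = 0.591 by limma), with a 95% interval of -0.43 to 0.11 or 0.745-fold to 1.08-fold.

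Clca1, a secreted metalloprotease that cuts Muc2 in the mucus, had 3.89, 3.89, 4.55 and 3.93 in Irf2_AhcKO, against 3.96, 4.03, 4.33 and 4.39 in control. In Irf2_AhcKO, replicate 3 stood apart above the other 3 arrays, which lay close together. The difference was -0.11 (standard error 0.13, adjusted p = 0.747 by limma), with a 95% interval of -0.42 to 0.20. Zg16, a small lectin-like protein that binds gram-positive bacteria in the mucus, had 3.55, 3.31, 4.47 and 3.83 in Irf2_AhcKO, against 3.72, 3.52, 4.67 and 4.29 in control. Its difference was -0.26 (standard error 0.16, adjusted p = 0.553 by limma), -0.19 on slide 1 and -0.33 on slide 2. Both genes were measured well above background on all arrays, and in both the groups overlapped.

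Tff3 encodes the intestinal trefoil factor, a small peptide of mucosal repair that is secreted with Muc2. It had 2.88, 2.75, 3.41 and 2.87 in Irf2_AhcKO, against 3.13, 2.77, 3.02 and 3.19 in control, with the highest value on Irf2_AhcKO replicate 3 and the lowest on Irf2_AhcKO replicate 2. The difference was -0.054 (standard error 0.15, adjusted p = 0.895 by limma), with a 95% interval of -0.40 to 0.29. Agr2, a protein disulfide isomerase of the endoplasmic reticulum that mucin folding needs, had 2.69, 2.82, 3.85 and 3.43 in Irf2_AhcKO, against 2.96, 2.72, 3.59 and 3.70 in control. Within each slide the groups were intermixed, and the difference was -0.045 (standard error 0.12, adjusted p = 0.889 by limma), with a 95% interval of -0.32 to 0.23. These 2 genes had the smallest differences of the 10.

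Spink4, a secreted protein of the Kazal protease inhibitor family, had 4.03, 3.94, 5.05 and 4.54 in Irf2_AhcKO, against 4.61, 4.28, 4.64 and 4.76 in control. On slide 1 both Irf2_AhcKO arrays were below both controls, whereas on slide 2 they lay on either side of the controls. The difference was -0.18 (standard error 0.17, adjusted p = 0.672 by limma), -0.46 on slide 1 and 0.097 on slide 2. Ccl6, a mouse chemokine that goblet cells share with myeloid cells, had 1.60, 1.52, 3.37 and 2.62 in Irf2_AhcKO, against 1.86, 2.22, 2.82 and 2.92 in control. Like Spink4 it had both Irf2_AhcKO arrays below both controls on slide 1 and on either side of them on slide 2, with a difference of -0.18 (standard error 0.20, adjusted p = 0.737 by limma), -0.48 on slide 1 and 0.13 on slide 2. The test of whether the difference itself changed between slides gave an unadjusted limma p of 0.1 for Spink4 and 0.143 for Ccl6 (limma adjusted p = 0.999 for both), and no feature passed it (4.29% had an unadjusted p below 0.05). As Ccl6 is also made by leukocytes, their markers were set beside it. Over the 13 leukocyte markers, of 21 listed, that every array detected, the mean log2 signal was 0.071 to 0.27 in Irf2_AhcKO and -0.05 to 0.26 in control. For some of these genes other probes were far dimmer than the probe used. On Irf2_AhcKO replicate 1, Itgam had 7.98 on the probe used, against -0.81 and -3.07 on its others. Csf1r had 4.54 there, against -0.76 and -4.74, and Nkg7 had 2.37, against -6.02. The mean is therefore an uncertain measure of leukocytes. Cd3g, Jchain, Cpa3, Mcpt1 and Mcpt2 were not well above background on any array.

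Retnlb encodes RELM-beta, a resistin-like antibacterial protein that goblet cells make under microbial or type 2 cytokine stimulation. It was dim, at -6.06, -5.34, -4.15 and -2.85 in Irf2_AhcKO, against -3.95, -6.23, -4.91 and -1.55 in control. Only Irf2_AhcKO replicates 3 and 4 and control replicates 1 and 4 were well above background, so the other 4 values have no reliable order. The difference of -0.44 (standard error 0.81, adjusted p = 0.84 by limma) had a 95% interval of -2.36 to 1.47 and says little about this gene.

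Klk1, the tissue kallikrein that releases kinins, had the largest difference of the 10. Its log2 signal was 0.41, 0.056, 1.70 and 1.08 in Irf2_AhcKO, against 2.10, 1.08, 2.06 and 1.96 in control. On each slide both Irf2_AhcKO arrays lay below both controls, which holds for 7.09% of all features. The groups still overlapped over the slides, since Irf2_AhcKO replicates 3 and 4 were at or above control replicate 2, if narrowly for replicate 4. The means were 0.81 ± 0.73 in Irf2_AhcKO and 1.80 ± 0.49 in control (SD, n = 4 each). The difference was -0.99 (standard error 0.28, adjusted p = 0.299 by limma), -1.36 on slide 1 and -0.62 on slide 2, or 0.504-fold with a 95% interval of 0.319 to 0.797. It did not pass over all features.

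**Figure D2:**
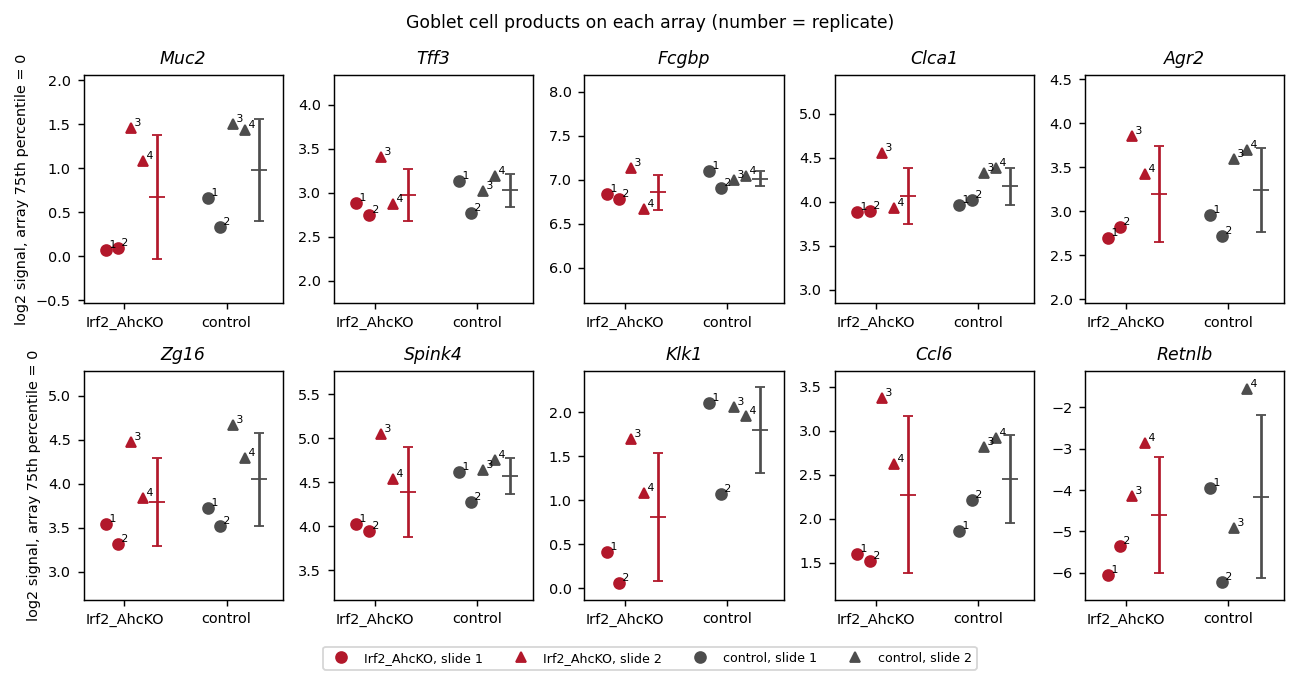
Each panel gives 1 goblet product, with its log2 signal minus the 75th percentile of the array on the vertical axis, a point for each array (circles slide 1, triangles slide 2, numbered by replicate) and a bar for the group's mean and SD. The panels span the same range except that of Retnlb, which is wider; slide 2 lies above slide 1 in Muc2, Agr2, Zg16 and Ccl6, and Irf2_AhcKO lies below control on each slide in Klk1.

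Klk1 belongs to a family of near-identical kallikrein genes, so its probe and those of its neighbours may read each other's transcripts. Of 13 listed Klk1b genes, 10 passed the filter on dim probes, and 8 were well above background on all 8 arrays. All 8 had a difference below 0, between -1.03 for Klk1b4 and -0.40 for Klk1b21 (median -0.81), with limma adjusted p from 0.288 to 0.377. Klk1b3 had -0.057, -0.24, 1.14 and 0.71 in Irf2_AhcKO, against 1.73, 0.93, 1.46 and 1.29 in control. Within each slide this is the order of arrays that Klk1 had. With the slide means removed, the Pearson correlation of these 8 probes with Klk1 over the 8 arrays was between 0.85 and 0.99. The remaining 2, Klk1b9 and Klk1b16, were well above background on 3 of 4 control arrays and had differences of 0.82 and 0.066. Their correlations with Klk1 by the same measure were -0.88 and -0.50. For Klk1b26 the 2 probes disagreed: 1 was well above background on all arrays and 1 on none. These values cannot say which of the family's transcripts was present.

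**Figure D3:**
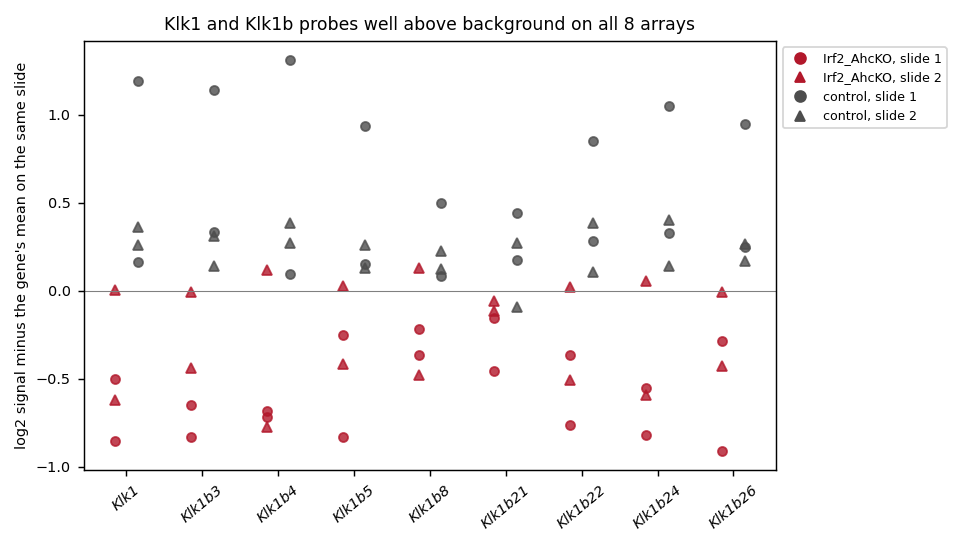
For Klk1 and the 8 Klk1b probes well above background on all 8 arrays, the vertical axis gives each array's log2 signal minus the gene's mean on the same slide, with Irf2_AhcKO left of control and circles for slide 1 and triangles for slide 2. In all 9 probes control replicate 1, the highest circle, stands above the other arrays, and most Irf2_AhcKO arrays lie below 0.

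The slide separated most goblet products more than the group did, as it did most features. For 8 of the 10 the difference between slides was larger in size than that between groups, as for 71.2% of all features, with Fcgbp and Klk1 as the exceptions. Without Retnlb, which was well above background on 1 array of slide 1 and 3 of slide 2, it was 7 of 9. Compared with slide 1, 5 of the 10 rose on slide 2 and none fell (limma adjusted p below 0.05), against 12% of all features higher and 23.5% lower. Muc2 rose by a log2 difference of 1.08 (standard error 0.12, adjusted p = 0.001 by limma), Ccl6 by 1.13 (standard error 0.20, adjusted p = 0.00582 by limma) and Agr2 by 0.85 (standard error 0.12, adjusted p = 0.00203 by limma). Zg16 rose by 0.79 (standard error 0.16, adjusted p = 0.0102 by limma) and Spink4 by 0.53 (standard error 0.17, adjusted p = 0.0464 by limma). In 4 of these 5, all but Spink4, every array of slide 2 lay above every array of slide 1, which held for 11.8% of all features. Klk1 at 0.79 (standard error 0.28, adjusted p = 0.066 by limma), Clca1 at 0.36 (standard error 0.13, adjusted p = 0.0744 by limma), Tff3 at 0.24 (standard error 0.15, adjusted p = 0.236 by limma) and Fcgbp at 0.055 (standard error 0.11, adjusted p = 0.741 by limma) did not pass. Retnlb did not pass either, and no size is given for it, as most of its slide 1 values were at background. The median slide difference of the 10 genes was 0.79, against -0.08 over all features. Slide, scan and whatever else set replicates 1 and 2 apart from replicates 3 and 4 cannot be told apart. Sex also differed between the slides, as both female samples lay on slide 2, 1 in each group. Its part in the slide differences was not tested. On replicate 4, Xist, the RNA of the inactive X, had 5.89 in Irf2_AhcKO and 5.83 in control, against -4.68 to -3.62 in Irf2_AhcKO and -4.03 to -3.55 in control on replicates 1 to 3. The Y-linked Ddx3y had -6.46 in Irf2_AhcKO and -6.35 in control on replicate 4, against -0.45 to -0.23 in Irf2_AhcKO and -0.41 to -0.14 in control on the others. Replicate 4 of both groups thus had the female pattern and the other 6 arrays the male one, so leaving out replicate 4 of a group also leaves out its female sample.

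**Figure D4:**
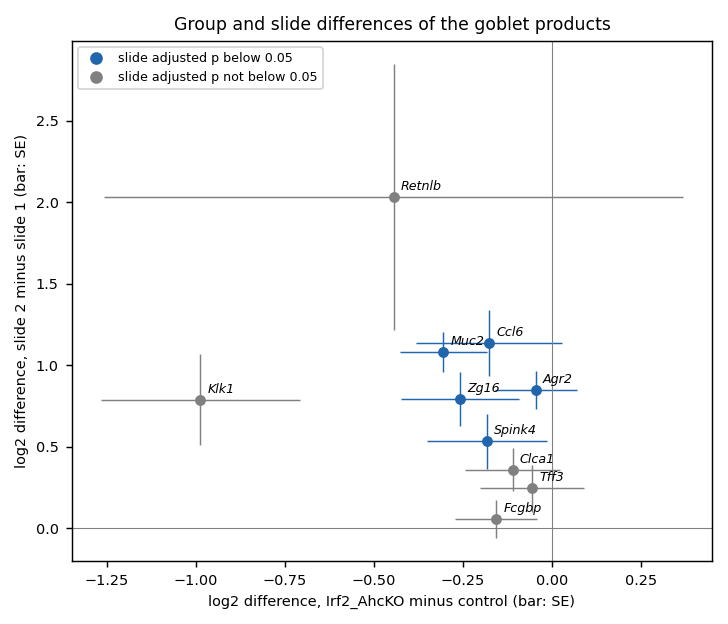
Each point is 1 goblet product, placed by its log2 difference of Irf2_AhcKO minus control (horizontal) and of slide 2 minus slide 1 (vertical), with bars for the SE. Retnlb rests in part on values at background. All 10 lie left of 0 and above 0, and the 5 in blue, Muc2, Ccl6, Agr2, Zg16 and Spink4, passed the slide test.

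Single arrays were highest or lowest for several goblet products at once. Irf2_AhcKO replicate 3 was the highest of the 8 arrays for 6 of the 10 genes (Tff3, Fcgbp, Clca1, Agr2, Spink4 and Ccl6), as for 7.92% of all features. Irf2_AhcKO replicate 2 was the lowest for 5 and replicate 1 for 3, as for 15.3% and 9.18% of all features. Averaged over the 9 products that every array detected, the log2 signal was 2.88, 2.80, 3.89 and 3.34 in Irf2_AhcKO, against 3.35, 3.09, 3.74 and 3.74 in control. Irf2_AhcKO arrays thus lay below the controls of their slide, except for replicate 3, which was above both. With slide means removed, each of these 9 genes followed the mean of the other 8 over the 8 arrays (Pearson correlation 0.64 for Ccl6 to 0.96 for Fcgbp), while Retnlb did so at 0.097. The 5 other features closest to the mean of the 9 by this measure were Cfi (0.98), Mccc2 (0.97), Commd6 (0.97), Cpeb4 (0.97) and Spata7 (0.96). These correlations describe 8 arrays that share slides and groups, and the 5 were the highest among all features.

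Other genes of the goblet programme showed no call between the groups either. Of 24 further goblet markers, 23 were measured, 12 with a difference below 0 and 11 above (median -0.0097). Tnfaip8 had a difference of 0.66 (standard error 0.14, adjusted p = 0.19 by limma), the phospholipase Pla2g10, detected on 3 Irf2_AhcKO and 4 control arrays, one of -0.58 (standard error 0.19, adjusted p = 0.351 by limma) and the calcium-binding S100a6 one of 0.60 (standard error 0.20, adjusted p = 0.361 by limma). On slide 2, 6 of the 23 rose against slide 1 and none fell, with Pla2g10 at 1.41 (standard error 0.19, adjusted p = 0.00192 by limma).

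Among regulators of the lineage, 9 of 13 measured genes had a difference below 0 and none passed (median -0.12, -0.25 on slide 1 and 0.0046 on slide 2). Creb3l4, a membrane-bound transcription factor, stood at -0.47 (standard error 0.17, adjusted p = 0.367 by limma), Elf3 at -0.33 (standard error 0.15, adjusted p = 0.434 by limma) and Foxa3 at -0.46 (standard error 0.30, adjusted p = 0.557 by limma). Of 31 genes of mucin O-glycosylation, 27 were measured, 21 with a difference below 0, and none passed (median -0.093). B3gnt3, which extends core glycans, stood at -0.35 (standard error 0.11, adjusted p = 0.33 by limma) and Gcnt4, which branches them, at -0.66 (standard error 0.21, adjusted p = 0.337 by limma). The fucosyltransferase Fut2 was well above background on 3 Irf2_AhcKO and 2 control arrays only, so no difference is given. Of 26 genes of the secretory folding machinery, 20 had a difference below 0 and none passed (median -0.10), with Ssr4 at -0.22 (standard error 0.074, adjusted p = 0.359 by limma), Ergic1 at -0.23 (standard error 0.092, adjusted p = 0.41 by limma) and Fkbp11 at 0.38 (standard error 0.19, adjusted p = 0.472 by limma). That median was -0.23 on slide 1 and 0.032 on slide 2. Another, dimmer Ergic1 probe had 1.05, 0.67, 1.25 and 0.75 in Irf2_AhcKO, against 0.95, 0.80, 0.87 and 0.89 in control. Its groups were intermixed on each slide, so the sign for Ergic1 rests on the brighter probe.

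Of 12 other mucins and trefoil factors, 7 were measured, 3 with a difference below 0, and none passed. The membrane-bound Muc13 stood at 0.16 (standard error 0.074, adjusted p = 0.457 by limma) and Muc20 at 0.30 (standard error 0.15, adjusted p = 0.475 by limma). Another, dimmer Muc20 probe had -2.69, -2.01, -1.94 and -1.95 in Irf2_AhcKO, against -2.31, -1.56, -2.35 and -2.52 in control. Tff2 was well above background on only 2 arrays in either group, so no difference is given. Among 9 measured genes of type 2 cytokine and interleukin 22 signalling, which can induce goblet products such as Clca1 and Retnlb, none passed. Stat3 stood at 0.49 (standard error 0.091, adjusted p = 0.147 by limma) and the receptor chain Il22ra1 at 0.22 (standard error 0.10, adjusted p = 0.457 by limma). A dimmer Il22ra1 probe had -2.37, -2.25, -2.14 and -2.07 in Irf2_AhcKO, against -2.27, -2.54, -2.46 and -1.78 in control. Il18 was well above background on 2 of 4 Irf2_AhcKO and all 4 control arrays, so no difference is given. Among paralogs of the 10 products, Clca4b, of the family of Clca1, stood at -0.68 (standard error 0.16, adjusted p = 0.241 by limma), next to Klk1b24 at -0.96 (standard error 0.26, adjusted p = 0.288 by limma) and Klk1b22 at -0.81 (standard error 0.22, adjusted p = 0.288 by limma).

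Markers of the other cell types that the gate could hold were set beside the goblet products. Defa21 stood at 0.09 and Itln1 at -0.0031, and neither passed. Over the 10 measured of 16 Paneth markers the mean log2 signal was 1.44 to 2.99 in Irf2_AhcKO and 1.99 to 2.54 in control, with Irf2_AhcKO replicate 3 highest and replicate 2 lowest, as for the mean of the goblet products. Over 12 of 15 enterocyte markers the mean was 0.15 to 0.58 in Irf2_AhcKO and 0.59 to 1.62 in control, ranges that do not overlap. The highest value, on control replicate 4, rests on Sis, sucrase-isomaltase, which had 10.42 there and -2.62 to -0.79 on the other 7 arrays. Without Sis the ranges were 0.39 to 0.77 in Irf2_AhcKO and 0.80 to 1.15 in control, close to touching. Of 14 measured enterocyte markers, 11 had a difference below 0, against 50.5% of all features. Of these, 8 had an unadjusted limma p below 0.05, against 5.74% of all features, and none passed the adjusted threshold. In 6 of the 14 the groups did not overlap, against 3.85% of all features, lower in Irf2_AhcKO in all but Anpep. Fabp2 stood at -0.50 (standard error 0.082, adjusted p = 0.122 by limma) and Dgat1 at -0.28 (standard error 0.093, adjusted p = 0.353 by limma), and Cubn was not well above background on any array. Over 9 of 12 tuft markers it was -0.71 to 0.50 in Irf2_AhcKO and -0.68 to -0.38 in control, with Ltc4s at 0.055. Of 11 measured tuft markers, 9 had a difference above 0 (median 0.28). An unadjusted limma p below 0.05 was found for 3 of these, Siglecf at 0.98, Trpm5 at 0.75 and Dclk1 at 0.68. None passed the adjusted threshold, and 11.7% of all features had such an unadjusted p in either direction. Over 12 of 15 enteroendocrine markers it was -1.38 to -0.66 in Irf2_AhcKO and -1.48 to -0.65 in control, with Chgb at 0.33 and Cpe at 0.056. The 17 stem cell markers lay at 2.66 to 2.90 in Irf2_AhcKO and 2.75 to 2.88 in control, and the 8 pan-epithelial genes at 3.26 to 3.53 in Irf2_AhcKO and 3.17 to 3.61 in control. The 2 brightest of each had differences of -0.0082 (Slc12a2), -0.045 (Cdca7), -0.16 (Epcam) and 0.038 (Krt18), and the 2 brightest leukocyte markers -0.029 (Itgam) and 0.14 (Csf1r). Other probes of Itgam and Csf1r were far dimmer, so the rank of these genes rests on the probe used and does not show strong leukocyte signal. Differences were below 0 in 3 of 10 Paneth, 7 of 15 enteroendocrine, 11 of 17 stem cell, 5 of 8 pan-epithelial and 6 of 15 leukocyte markers, and none of these lists held a gene that passed. The part of such cells in the goblet values was not tested.

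**Figure D5:**
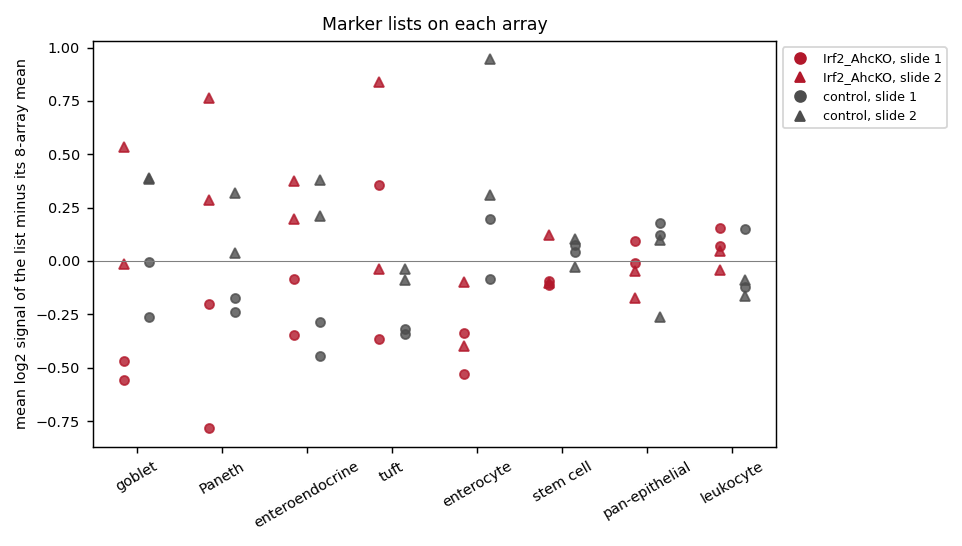
The vertical axis gives, for each list and array, the mean log2 signal of the genes well above background on all 8 arrays, minus the list's mean over the arrays, with Irf2_AhcKO left of control and circles for slide 1 and triangles for slide 2. Paneth and enteroendocrine markers lie higher on slide 2 than on slide 1 on every array, the goblet products do so on all but Irf2_AhcKO replicate 4, which lay just below control replicate 1, and enterocyte markers lie lower in Irf2_AhcKO, with the highest control point resting on Sis.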

How the data were processed

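Labelled RNA of 4 Irf2_AhcKO and 4 control samples was measured on 1-colour arrays. Per the labels' protocols, 20 ng of total RNA was amplified with an Ovation Pico WTA kit. The deposited scanner files give the intensity of 62976 spots per array, made with Agilent Feature Extraction 11.5.1.1 per the file headers, as a background-subtracted and detrended signal. The series table that the authors deposited is this intensity multiplied by 1 constant per array (6.41 to 6.90; linear, uncentred, column medians 207 to 246), and no source used here says how the constant was set.

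From these, the log2 processed signal minus each array's 75th percentile was taken, repeat spots were averaged after dropping outliers, probes well above background on at least 4 of 8 arrays were kept, and the brightest kept probe stood for its gene. Of 55681 probes, 28331 matched a symbol by accession in a RefSeq table of GRCm38.p6. The array grid was annotated on mm9, so gene coordinates are not printed. The comparison used lmFit and eBayes of limma 3.58.1 (R 4.3.3), two-sided and with slide as a term, and p adjusted over all features by Benjamini-Hochberg at 0.05. The code was tested on simulated data.

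Arrays sharing a replicate number moved together about the means of their groups (correlation across features 0.46 to 0.53), but they also share a slide. With slide means removed the correlation fell to 0.046 on slide 1 and 0.21 on slide 2. These values therefore do not show that the numbers are pairs beyond the slide. The number of arrays limits the precision. Alternatives were other background, normalization, filter, probe and slide settings and leaving out each array. The 10 genes and all lists were chosen with earlier results of these data known. Every one of the 10 is named, with Irf2, from each other list the 3 genes of smallest unadjusted p, from each marker list the 2 of highest mean, and the 5 features most like the goblet mean. Lgr5, Ascl2, Smoc2, Xist, Ddx3y, Sis, Anpep, Trpm5, Siglecf, the Klk1b genes and the undetected markers were named after their values were seen.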

Additional observations from a re-analysis of the deposited data

Results flagged for a closer look

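In 22 groups of 4 arrays (the 10 goblet products and Irf2, in each group), a single array stood apart from the other 3 in 2. The rule flags about 1 in 20 where all arrays of a group vary alike and the genes are independent. Here each group pooled both slides and most genes moved together, so that rate is only nominal. Clca1 on Irf2_AhcKO replicate 3 was 4.55, against 3.89 to 3.93 on the other Irf2_AhcKO arrays. Klk1 on control replicate 2 was 1.08, the lowest of its group, against 1.96 to 2.10 on the other control arrays.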

How the results depend on the processing

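No goblet product passed under any of the 19 alternatives run, with the lowest limma adjusted p at 0.151 for Klk1 with normexp. Not all of the 19 could differ. The authors' deposited table had to repeat the main result, since it differs from the processed signal by 1 constant per array. Dropping the filter or averaging probes could not change the 10 differences, as each gene has 1 probe. Nor could the replicate block or leaving out the slide term, as each slide and replicate number held equally many arrays of both groups. Those settings could change only the errors and p-values. Asking for all arrays well above background left 9 of the genes, with the same differences. The median difference of the 10 genes stayed below 0, between -0.30 and -0.10. The spread between arrays of a group was 0.50 with the slide left in. As that is larger in size than the median itself, it is no measure of how steady the median was. Signs turned on slide 2 alone for Ccl6 (0.13), Spink4 (0.097) and Tff3 (0.028), and with array weights for Retnlb (0.0049). Leaving out 1 array gave -0.14 to 0.032 for Agr2, -0.23 to 0.014 for Clca1, -0.18 to 0.037 for Tff3, -1.15 to 0.19 for Retnlb, -0.39 to -0.044 for Ccl6, -0.34 to -0.059 for Spink4, -0.25 to -0.072 for Fcgbp, -0.37 to -0.12 for Zg16, -0.40 to -0.22 for Muc2 and -1.19 to -0.71 for Klk1. The lowest value came without Irf2_AhcKO replicate 3 for all but Retnlb. All 10 differences were below 0 except for 3 without Irf2_AhcKO replicate 4 or control replicate 1 and 1 without control replicate 4. The count of 25 features called by limma became 133 with normexp on median signals (added after seeing the files), 7 without a filter, and 46 for probes well above background on all arrays. It was 0 with the replicate block (3292 at an unadjusted p below 0.05) and 0 within slide 1 or slide 2 alone (2538 and 1336), and 0 to 25 without 1 array (2187 to 4097): 0 without Irf2_AhcKO replicate 1, Irf2_AhcKO replicate 2 or control replicate 2. The replicate block changed no call of a goblet product. Retnlb was not tested when all arrays had to be well above background. Normexp on mean signals was not run, since the scanner files used here give median signals. The cause of these changes was not tested.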

Other observations

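Some products of the other secretory lineages were also higher on slide 2. Of 10 measured Paneth markers, 4 rose against slide 1 (limma adjusted p below 0.05) and none fell, among them the matrix protease Mmp7 by a log2 difference of 1.06 (standard error 0.13, adjusted p = 0.0013 by limma) and the defensin Defa21 by 1.35 (standard error 0.32, adjusted p = 0.0174 by limma). Of 15 enteroendocrine markers, 5 rose and none fell, among them the tachykinin precursor Tac1 by 1.09 (standard error 0.15, adjusted p = 0.0023 by limma) and the hormone precursor Gcg by 1.31 (standard error 0.36, adjusted p = 0.029 by limma). The stem cell markers went both ways, with 2 of 17 higher and 3 lower, among them the Wnt-pathway ubiquitin ligase Znrf3 at -0.95 (standard error 0.15, adjusted p = 0.00329 by limma). These genes were named after their values were seen, and slide and mice cannot be told apart.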
